A study of Mus musculus with 2 samples.

Results

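The 300 promoters described here were rich in CpG dinucleotides and yet carried no called DNase peak in the adrenal gland of young mice. They were found among 20807 autosomal protein-coding genes of GENCODE release M21. A promoter counted as CpG-rich when the highest ratio of observed to expected CpG, over the 500 bp on each side of any annotated start, was 0.60 or more. It counted as closed when neither replicate had a peak of the shorter deposited peak list within 1 kb of any start of the gene. Of the 11218 CpG-rich promoters 300 were closed, a share of 2.67%, while 30.4% of all the genes had no peak in either replicate. The promoters were thus chosen by the absence of peaks in these same samples, and the peak counts, heights and distances below describe them and test nothing. "Closed" means only that no peak of the shorter list was called, since weaker signal was present at many of them.

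DNA of most mammalian genomes is poor in CpG because methylated cytosine mutates to thymine, and CpG islands are stretches that kept the dinucleotide because they stay unmethylated in the germ line. Island promoters belong to housekeeping genes and to many developmental regulators, and they are usually open in most tissues, including where the gene is weakly used. Island promoters known to be shut in somatic tissue include germ cell genes, which are silenced by DNA methylation and by repressors at E-box and E2F sites, and developmental regulators, which are held by Polycomb complexes.

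DNase I cuts accessible DNA, and the density of cuts was measured by sequencing in adrenal gland tissue from females of B6CASTF1/J, the first-generation offspring of C57BL/6J and CAST/EiJ, at 10 days of age. There was 1 group of 2 biological replicates with no treatment, and the labels name 3 females for each, so each sample pooled animals and no condition could be compared. Replicate 1 had 98813 peaks in its shorter list and 159343 in its longer list, and replicate 2 had 55135 and 93845. Each peak of the shorter lists held a base at a false discovery rate (FDR) of at most 0.001, and each peak of the longer lists held one at 0.05 or less. Of 18 steroidogenic genes of the cortex 14 had a promoter peak in both replicates, and of 20 genes of medullary chromaffin cells 13 had one. Cyp11b2 and Hsd3b1 of the first list and Pnmt of the second had no peak in either replicate, as did 30.4% of all genes. A peak in both was also present at 9 of 10 adipocyte, 7 of 11 endothelial and 6 of 8 Schwann and sustentacular genes. The counts were 4 of 14 for kidney, 4 of 12 for skeletal muscle and 3 of 14 for blood. These counts therefore do not set the adrenal lists apart from all the others. None of the 6 CpG-rich steroidogenic and 13 CpG-rich chromaffin promoters was closed. The lists for blood, endothelium, adipocytes, kidney, skeletal muscle and Schwann cells had 1 to 4 CpG-rich promoters each, and none of these was closed.

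The sequences below set closed promoters beside open ones of the same kind of gene. Each is the 200 bases upstream of the start with the highest CpG ratio, on mm10, read 5′ to 3′ on the strand of the gene, with every CpG in capitals, and overlaps no annotated exon. The synaptonemal complex gene Sycp1 (chr3:102936101-102936300, minus strand) is set beside the meiotic recombination gene Mnd1 (chr3:84155787-84155986, minus strand). The piRNA factor Mael (chr1:166238748-166238947, minus strand) is set beside the germ granule gene Tdrd7 (chr4:45972033-45972232, plus strand). The homeobox gene Barhl2 (chr5:106458167-106458366, minus strand) is set beside Pou2f1 (chr1:166002679-166002878, minus strand). The T-type calcium channel gene Cacna1i (chr15:80287038-80287237, plus strand) is set beside the potassium channel subunit gene Kcnab2 (chr4:152477872-152478071, minus strand), within 1 kb of which Nphp4 also starts.
Sycp1, closed: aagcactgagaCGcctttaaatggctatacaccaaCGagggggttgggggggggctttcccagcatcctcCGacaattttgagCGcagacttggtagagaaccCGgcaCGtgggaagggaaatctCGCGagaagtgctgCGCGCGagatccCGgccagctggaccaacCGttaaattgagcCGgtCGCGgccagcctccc
Mnd1, open: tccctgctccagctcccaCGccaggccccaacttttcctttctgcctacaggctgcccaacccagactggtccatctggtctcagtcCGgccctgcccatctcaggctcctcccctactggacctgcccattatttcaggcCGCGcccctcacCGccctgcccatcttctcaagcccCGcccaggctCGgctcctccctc
Mael, closed: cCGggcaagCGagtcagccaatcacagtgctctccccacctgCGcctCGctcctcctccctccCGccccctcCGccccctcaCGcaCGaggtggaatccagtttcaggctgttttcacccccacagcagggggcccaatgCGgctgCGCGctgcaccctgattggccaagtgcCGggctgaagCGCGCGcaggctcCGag
Tdrd7, open: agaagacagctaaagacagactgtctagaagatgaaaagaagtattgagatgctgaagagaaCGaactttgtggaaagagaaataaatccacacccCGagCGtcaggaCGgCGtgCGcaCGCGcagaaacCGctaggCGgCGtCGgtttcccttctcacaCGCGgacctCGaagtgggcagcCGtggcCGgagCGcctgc
Barhl2, closed: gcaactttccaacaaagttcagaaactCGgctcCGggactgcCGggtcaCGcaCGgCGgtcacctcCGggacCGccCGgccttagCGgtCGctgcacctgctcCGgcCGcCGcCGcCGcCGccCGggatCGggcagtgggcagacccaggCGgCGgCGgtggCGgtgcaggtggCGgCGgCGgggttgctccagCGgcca
Pou2f1, open: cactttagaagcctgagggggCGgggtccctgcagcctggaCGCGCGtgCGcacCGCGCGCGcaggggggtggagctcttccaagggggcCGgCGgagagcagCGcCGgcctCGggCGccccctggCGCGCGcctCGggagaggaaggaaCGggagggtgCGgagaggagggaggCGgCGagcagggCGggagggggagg
Cacna1i, closed: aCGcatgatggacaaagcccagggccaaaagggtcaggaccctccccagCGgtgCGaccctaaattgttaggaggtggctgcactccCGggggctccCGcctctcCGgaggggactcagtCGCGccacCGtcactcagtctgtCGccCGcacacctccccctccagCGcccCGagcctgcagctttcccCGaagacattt
Kcnab2, open: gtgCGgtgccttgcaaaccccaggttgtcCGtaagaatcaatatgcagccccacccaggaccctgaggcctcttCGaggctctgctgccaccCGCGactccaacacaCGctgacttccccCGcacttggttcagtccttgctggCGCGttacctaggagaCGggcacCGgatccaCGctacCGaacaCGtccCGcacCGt
The closed stretches held 16 CpGs in Sycp1, 16 in Mael, 27 in Barhl2 and 14 in Cacna1i. The open ones held 7 in Mnd1, 18 in Tdrd7, 24 in Pou2f1 and 16 in Kcnab2. The numbers of the closed and open stretches overlapped. Peak heights, in the signal the authors normalised, were 13.4 in replicate 1 and 5.24 in replicate 2 at Mnd1, 16.5 and 8.84 at Tdrd7, 13.1 and 4.21 at Pou2f1, and 9.61 and 5.16 at Kcnab2. The stretch of Sycp1 held an E-box (CACGTG) that begins at base 107, counted from its 5′ end. That of Mael held a match to the E2F consensus (TCCCGCC on either strand) at base 61, as did the closed stretch of Cacna1i at base 95 and the open one of Pou2f1 at base 186.

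Over all CpG-rich promoters, closing was most frequent near the lower limit of the CpG ratio. The closed share was 8.88% (93 promoters) between 0.60 and 0.65, 2.38% (40 promoters) between 0.75 and 0.80, and 0.773% (5 promoters) at 1.0 or more. The median ratio was 0.696 at closed promoters and 0.803 at those open in both replicates, with a median of 61 and 75 CpGs in the window. The surrounding CpG island was shorter at closed promoters, with a median of 655 bp against 830 bp. The genes also had simpler models. The median was 2 annotated starts against 5, and the transcript with the most exons had a median of 4 against 10. Of the closed genes 42 (14.0%) had 1 exon in every transcript, against 2.68% of open ones and 5.58% of all autosomal coding genes. Simple models were not particular to CpG-rich genes. Closed CpG-poor genes also had medians of 2 starts and 4 exons, and 12.1% of them had 1 exon in every transcript. Another coding gene started within 1 kb of 26 closed CpG-rich promoters (8.67%), against 23.2% of open ones, 3.04% of closed CpG-poor ones and 14.9% of all genes. A gene with more starts had more chances to be near a peak, so the number of starts is bound up with the rule.

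**Figure D1:**
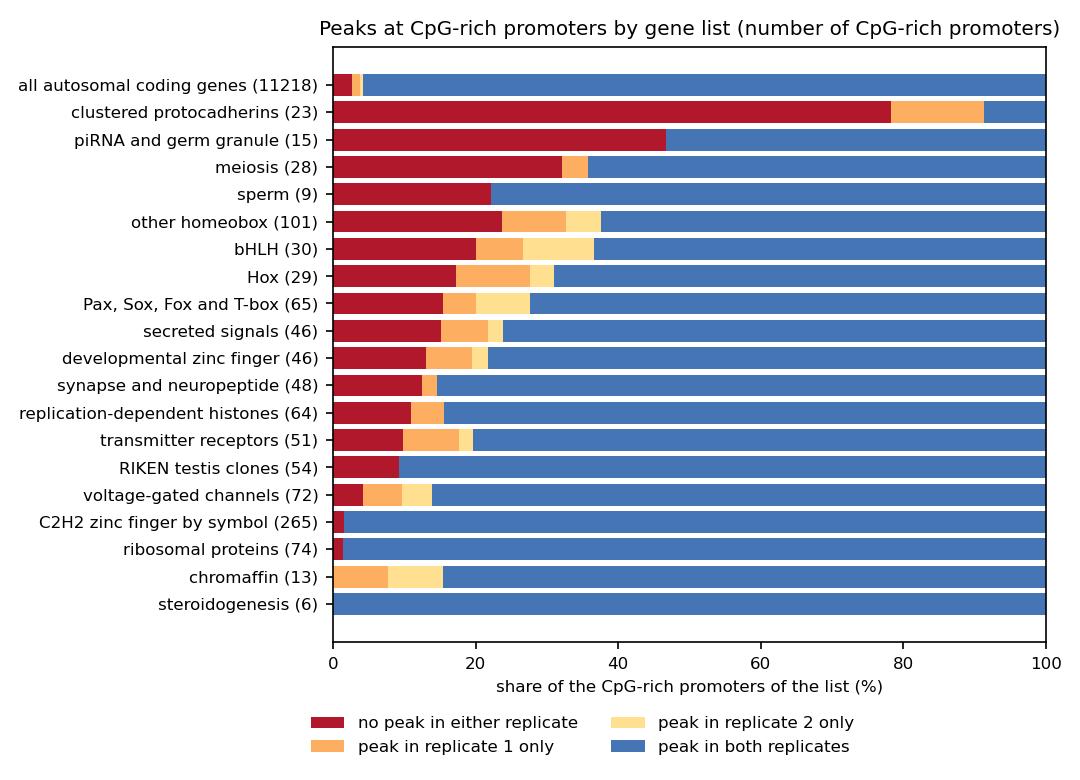
Share of the CpG-rich promoters of each gene list (number in brackets) with no peak in either replicate, a peak in 1 replicate only, or a peak in both. Of the clustered protocadherins 18 of 23 were closed, against 300 of 11218 over all genes, while none of the chromaffin or steroidogenic promoters was.

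Germ cell genes had the second highest closed share of the 4 groups set out here. Of 58 CpG-rich promoters on 4 lists of germ cell genes 20 were closed (34.5%, against 2.67% over all CpG-rich promoters), 36 were open in both replicates and 2 in 1 replicate. The meiosis list had 9 of 28 closed (32.1%). They were Sycp1, Sycp2, Sycp3 and Tex12, which encode parts of the synaptonemal complex that joins paired chromosomes, Hormad1 and Hormad2 of the chromosome axis, Spo11, which makes the meiotic double-strand breaks, Rnf212, which marks crossover sites, and Meioc, which keeps cells in meiotic prophase. Meioc had a weak peak of 0.241 in the longer list of replicate 1 and none in replicate 2. Sycp1 had the reverse, none in replicate 1 and 0.223 in replicate 2. Hormad1 and Tex12 had none in either. Open promoters of the same list reached 15.6 and 7.06 at Prdm9, which sets the sites of recombination, and 13.7 and 6.45 at Sun1, which tethers telomeres to the nuclear envelope.

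The list of piRNA and germ granule genes had 7 of 15 closed (46.7%). These were Ddx4, the germ cell helicase, Mael, Mov10l1, Asz1, Tdrd1, Fkbp6 and Henmt1, whose products make, load or modify the small RNAs that silence transposons in the germ line. Ddx4 had a weak peak of 0.236 in replicate 2 only and Henmt1 one of 0.287 in replicate 1 only, with the start of Gm9857 beside it. The other 5 had no peak of either list. Of the sperm genes 2 of 9 were closed, the testis form of an ADP/ATP carrier, Slc25a31, and the testis copy of a ribosomal protein, Rpl10l. Neither had a peak of either list. Rpl10l was also the only closed promoter among 74 CpG-rich genes of ribosomal proteins, and 28.1% of its 32-base words occurred again in the genome. Of the oocyte and pluripotency genes 2 of 6 were closed. Lin28a had weak signal in replicate 2 alone (0.291), and Tdgf1 in both (0.401 and 0.459). Among genes named only by RIKEN clone numbers of testis libraries 5 of 54 were closed (9.26%), and none of the 5 had a peak of the longer list.

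Developmental transcription factors gave the largest number of closed promoters among these groups. Of 271 CpG-rich promoters on 5 lists 51 were closed (18.8%), 185 were open in both replicates, 20 in replicate 1 only and 15 in replicate 2 only. The closed promoters were 24 of 101 homeobox genes outside the Hox clusters (23.8%), 6 of 30 basic helix-loop-helix genes (20%), 5 of 29 Hox genes (17.2%), 10 of 65 Pax, Sox, Fox and T-box genes (15.4%) and 6 of 46 developmental zinc finger genes (13.0%). None of the 51 lay in mostly repeated sequence.

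The closed homeobox genes included regulators of the forebrain and eye (Six3, Rax, Dlx2, Dlx5, Gsx2, Nkx2-1), of the spinal cord (Dbx1, Evx1, Lhx5, Nkx2-2), of the heart (Nkx2-5, Irx4) and of the gut (Cdx1, Cdx2, Barx1). Barhl2, a regulator of retinal and spinal neurons, had the highest CpG ratio of all 300 promoters (1.07), with 116 CpGs in the window. Its peaks in the longer lists reached 0.602 and 0.626. The closed homeobox genes next in CpG ratio had a longer-list peak in replicate 2 only: 0.459 at Uncx, 0.607 at Barx1 and 0.421 at Nkx2-1. Of the 24 closed homeobox promoters 7 had such a peak in replicate 1 and 14 in replicate 2, and 5 of them in both. That order was the opposite of the total number of peaks, which was greater in replicate 1. Open members of the list reached 13.1 and 4.21 at Pou2f1 and 11.0 and 4.65 at Six5.

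The closed Hox promoters were all from the 5′ end of their clusters, the end used in the most posterior parts of the body: Hoxa11, Hoxa13, Hoxc11, Hoxc12 and Hoxd13. Hoxa13 had a longer-list peak of 0.789 in replicate 1 and none in replicate 2, and Hoxd13 one of 0.575 in replicate 1 only. Hoxc12 had 0.434 in replicate 2 only, and Hoxc11 and Hoxa11 had none. Hoxa4 and Hoxa5 of the middle of their cluster were open at 7.40 and 3.63 and at 6.42 and 3.89.

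Among the other factors, Tbx1, a regulator of the pharyngeal arches with a CpG ratio of 1.03, had no peak of either list and no base under an FDR of 0.05 in either replicate. Tbx15, in contrast, had peaks of 0.722 and 0.769 in the longer lists, and Tbx21, the master regulator of type 1 helper T cells, had 0.381 and 0.614. Of the helix-loop-helix genes Hes5, a Notch target, had 0.682 and 0.862. Olig2, the oligodendrocyte and motor neuron factor, had 0.535 and 0.403. Bhlhe23 had no peak of either list at a CpG ratio of 0.943, and Neurog1, which specifies sensory neurons, had one of 0.408 in replicate 1 only. Of the 6 closed zinc finger genes 5 had longer-list peaks in both replicates, among them Zic1 with 0.588 and 0.558, whose window also holds the start of Zic4, and Dmrta2 with 0.588 and 0.614. Members of 1 list therefore ranged from no listed base to peaks seen in both replicates.

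Secreted signals had 7 of 46 CpG-rich promoters closed (15.2%): Wnt3, Wnt3a, Wnt10b, the Wnt antagonist Sfrp5, Fgf8, and Bmp8b and Gdf7 of the BMP family. Each of the 7 had a longer-list peak in at least 1 replicate. Fgf8 had 0.508 in replicate 1 and none in replicate 2, whereas Wnt3a had none in replicate 1 and 0.539 in replicate 2. Bmp8b had 0.408 in replicate 1 only, and Gdf7 had 0.638 in replicate 2 only. Wnt4, a signal of the adrenal cortex, was open at 5.32 and 2.81.

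Neuronal genes had 14 of 171 CpG-rich promoters closed (8.19%). Of voltage-gated channel genes 3 of 72 were closed (4.17%), of transmitter receptor genes 5 of 51 (9.80%), and of synapse and neuropeptide genes 6 of 48 (12.5%). Cacna1i had longer-list peaks of 0.401 and 0.452. The dopamine receptor gene Drd5 and the serotonin receptor gene Htr6 had no peak of either list. Slc6a4, the serotonin transporter, had longer-list peaks of 0.495 and 0.601, and its nearest shorter-list peaks lay 1023 and 1003 bp from a start, just beyond the limit. Bases at an FDR of 7.28e-12 in replicate 1 and 7.71e-11 in replicate 2 fell inside the 1 kb, so at this gene the limit of distance alone set the class. The precursor gene of substance P, Tac1, had no peak of either list.

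The clustered protocadherins, cell surface proteins of which each neuron uses a few by choice of promoter, had 18 of 23 CpG-rich promoters closed (78.3%). They were 11 gene models of the alpha cluster and 7 of the gamma cluster. Their CpG islands were short, with a median of 120 bp against 655 bp over all closed promoters. The island was 0 bp at Pcdha2, Pcdha3, Pcdha4, Pcdha6, Pcdha7 and Pcdha8, 290 bp at Pcdha1 and 590 bp at Pcdha5. A CpG ratio above the limit thus did not always mean a CpG island. None of the 11 alpha models had a longer-list peak in either replicate, and the distance to the nearest shorter-list peak ran from 77609 bp to 143008 bp. Of the 7 gamma models 4 had a longer-list peak, of 0.321 to 0.608 in replicate 1 and 0.421 to 0.552 in replicate 2, and a peak lay within 4592 to 12681 bp. The promoters open in both replicates were of the C type, which is used without such a choice, at 8.28 and 3.10 for Pcdhgc3 and 0.735 and 0.787 for Pcdhac2. Another 3 CpG-rich promoters of the clusters were open in replicate 1 only. Only 1 of 19 other cadherin genes was closed, Cdh7, with weak peaks of 0.194 and 0.236.

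A second kind of closed promoter lay in sequence that occurs more than once in the genome. In 54 of the 300 (18%, against 0.540% of promoters open in both replicates and 5.33% of all genes) more than 50% of the 32-base words in the 2-kb region occurred again, and in 27 every word did. Among closed CpG-poor promoters 15.1% likewise held mostly repeated words. A read from such a word has no single place on the genome. How the authors' alignments treated these reads is not given in the sources used here, and its part in the lack of peaks was not tested. Of these 54 promoters 29 belonged to predicted genes with Gm symbols and 5 to replication-dependent histone genes. The histone pairs Hist1h2ao with Hist1h2bq and Hist1h2ap with Hist1h2br had every word repeated and no peak of either list, while the testis variants Hist1h2aa and Hist1h2ba, with 10.7% of words repeated, were closed as well. Among histone promoters of mostly unique words 2 of 54 were closed, against 7 of 64 over all. The histone count was also 2 of 64 when peaks within 2 kb of a start were counted, so it turns on the distance as well. For C2H2 zinc finger genes named by symbol the counts were 2 of 263 against 4 of 265, and for predicted genes 14 of 145 against 43 of 198. Duplicated genes with broad or other roles fell in the same class, such as Entpd4 and Entpd4b, Slc25a37, the iron carrier of mitochondria, and Loxl2. Without mostly repeated promoters 246 of 11096 CpG-rich promoters were closed (2.22%), and the counts for germ cell, developmental, neuronal, signal and protocadherin genes were the same.

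In none of the gene lists were 129 closed promoters (43.0%, against 90.5% of those open in both replicates). The lists were chosen with earlier results of these data known, so this contrast is only a description. Of the 10 highest longer-list peaks of all 300, 6 came from the 129. Hcn2, a pacemaker channel gene outside the channel list, reached 1.00 in replicate 1 and 0.893 in replicate 2. Prss16, a thymus-specific serine protease, reached 0.963 and 0.744, the transcription factor gene Tfap2e 0.816 and 0.781, and Mdk, the growth factor midkine, 0.755 and 0.80. The factor gene Nr2e1 of neural stem cells had 0.662 and 0.713. Among those of highest CpG ratio were Tcfl5, a testis transcription factor gene (1.07), Jph3, a junctophilin gene of neurons (1.02), and the epithelial factor gene Ovol1 (0.986). Further members with roles like those of the lists, chosen after their values were seen, were the AP-2 factor genes Tfap2b and Tfap2d, the corepressor genes Skor1 and Skor2, and the testis genes Papolb, Stk31 and Adad1.

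Weaker signal was listed more often at closed CpG-rich promoters than at closed CpG-poor ones. Of the 6026 closed CpG-poor promoters 1419 belonged to olfactory and vomeronasal receptor genes and 898 to predicted genes with Gm symbols. The part of this makeup in the difference was not tested. A peak of the longer list lay within 1 kb of 110 of the 300 in replicate 1 (36.7%) and of 100 in replicate 2 (33.3%). The same held for 10.8% and 4.31% of 6026 closed CpG-poor promoters, and for 73.1% and 70.1% of all autosomal coding genes. A base under an FDR of 0.05 lay within 1 kb of 122 (40.7%) and 121 (40.3%), against 12.7% and 5.76% of the CpG-poor ones and 73.7% and 70.8% of all genes. A footprint, a short protected stretch inside open chromatin, was called at 78 (26.0%) and 85 (28.3%), against 6.37% and 2.84% and, over all genes, 71.1% and 68.9%. A longer-list peak was present in both replicates at 72 of the 300 (24.0%, against 69.3% of all genes) and in neither at 162 (54.0%, against 87.7% of closed CpG-poor promoters and 26.2% of all genes). In replicate 1 only it was present at 38 (12.7%, against 3.74% of all genes), and in replicate 2 only at 28 (9.33%, against 0.769%). At 144 promoters (48.0%, against 85.4% of closed CpG-poor ones) no base was listed in either replicate. A base at an FDR of 0.001 or less lay within 1 kb of 18 (6.00%) in replicate 1 and 10 (3.33%) in replicate 2, against 69.5% and 66.4% of all genes. In bulk tissue, opening in few cells and weak opening in many cells cannot be told apart.

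**Figure D2:**
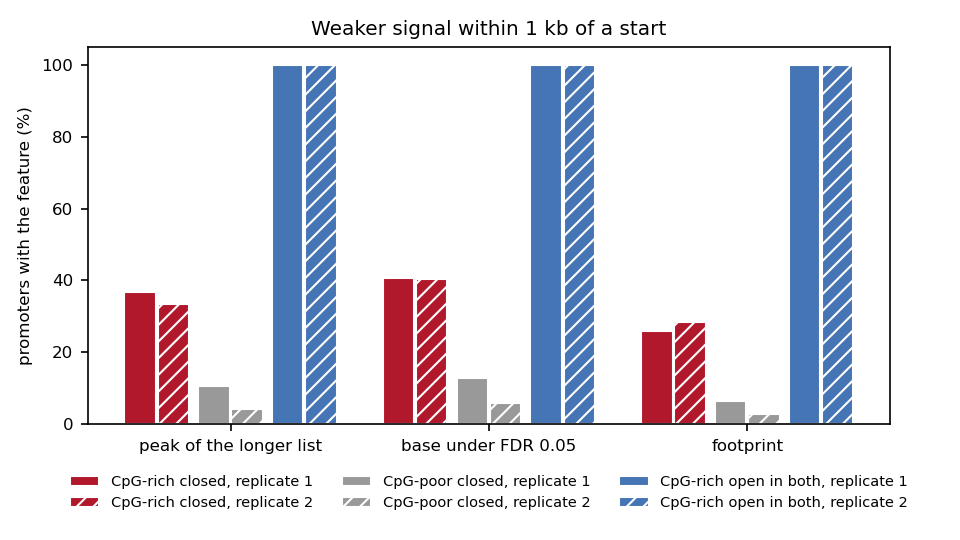
Percent of promoters with a peak of the longer list, a base under an FDR of 0.05 or a footprint within 1 kb of a start, by class and replicate (plain bars, replicate 1, and hatched bars, replicate 2). Closed CpG-rich promoters held each feature at 26.0% to 40.7% and closed CpG-poor ones at 2.84% to 12.7%.

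The groups differed in how often weak signal was present. A longer-list peak in 1 or both replicates was found at 7 of 7 closed signal genes, 32 of 51 developmental factors, 8 of 14 neuronal genes, 69 of 129 genes in no list, 8 of 20 germ cell genes and 4 of 18 clustered protocadherins, against 138 of 300 over all members. With 1 group of samples these counts are a description. Median heights among those with a peak were 0.558 in replicate 1 and 0.545 in replicate 2 for developmental factors, and 0.294 and 0.291 for germ cell genes. Heights over all members ran from 0.107 to 1.00 with a median of 0.445 in replicate 1, and from 0.112 to 0.893 with a median of 0.502 in replicate 2. At promoters open in both replicates the medians were 7.03 and 3.55, so the weak peaks lay near the bottom of the range of promoter peaks. Promoters with a shorter-list peak in 1 replicate only were nearer to them, with medians of 0.785 (118 promoters, replicate 1) and 0.542 (60 promoters, replicate 2).

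**Figure D3:**
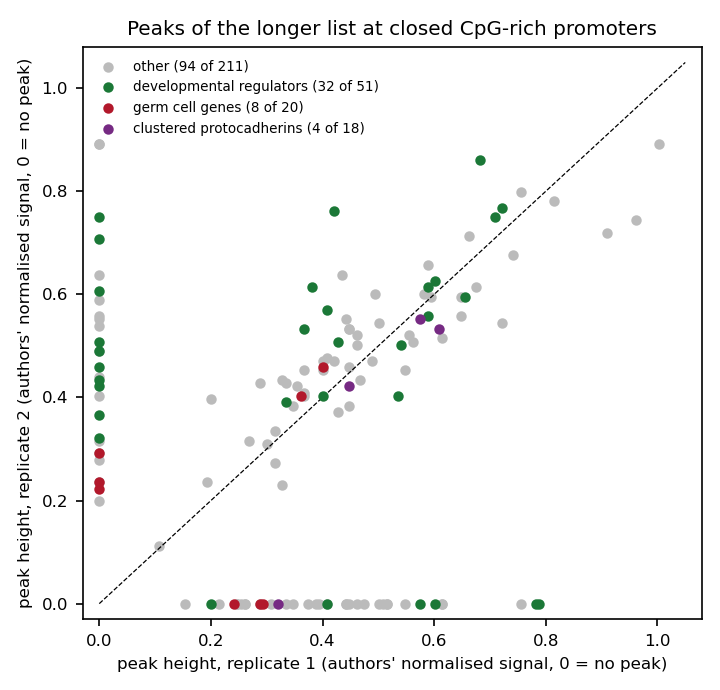
Height of the highest longer-list peak within 1 kb of a start in replicate 1 and replicate 2 (the authors' normalised signal, 0 where no peak was listed) for the 138 closed CpG-rich promoters with a peak in 1 or both, by group. The 72 points with a peak in both replicates lie around the dashed line of equal heights. Those with a peak in replicate 1 only (38) or in replicate 2 only (28) lie on an axis. Developmental factors reach higher values than germ cell genes.

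Where both replicates had a weak peak, its heights were about equal in the 2. Of the 72 members with a longer-list peak in both, 26 were higher in replicate 1, and the median log2 ratio of replicate 1 to replicate 2 was -0.09. Among the 10740 CpG-rich promoters open in both, 10456 were higher in replicate 1 with a median log2 ratio of 0.95. The rule bounds the height of members, and among 358 open CpG-rich promoters no higher than the highest member, 208 were higher in replicate 1 with a median of 0.06.

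Peaks lay nearer to closed CpG-rich promoters than to closed CpG-poor ones. The part of the receptor and predicted genes among the CpG-poor ones in this difference was not tested. The nearest shorter-list peak was at a median of 7067 bp in replicate 1 and 11256 bp in replicate 2, against 18877 bp and 33889 bp for closed CpG-poor promoters. Within 10 kb a peak was present at 182 (60.7%) and 140 (46.7%) of the 300, and within 50 kb none was present at 42 and 63. The median number of peaks within 50 kb was 5 and 3, against 8 and 5 at promoters open in both replicates (their own included) and 2 and 1 at closed CpG-poor ones. Bins of 1 kb from 2 to 20 kb away were counted from the start with the highest CpG ratio. On average 5.52% of closed CpG-rich promoters had a peak centre in a bin in replicate 1. The mean was 6.42% for open CpG-rich and 3.36% for closed CpG-poor ones. In replicate 2 the means were 3.99%, 3.97% and 2.12%, so closed and open CpG-rich promoters were nearly equal there. Peaks at other starts of an open gene can fall in these bins. For closed genes the rule allows no peak within 1 kb of any start, so it still bears on this comparison. The 8 members farthest from a peak were all predicted genes in repeated sequence, up to 520007 bp for Gm21953, followed by Pcdha3.

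**Figure D4:**
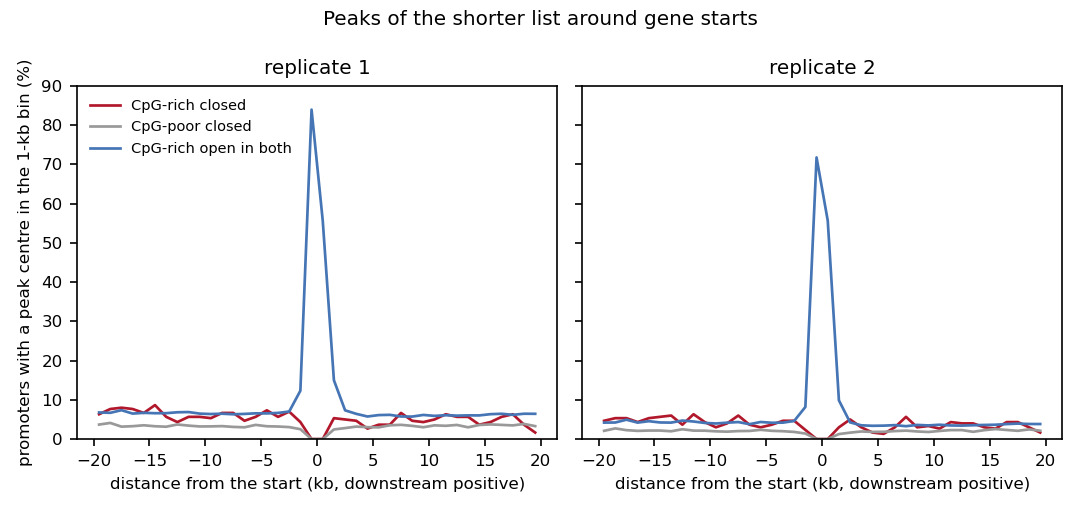
Percent of promoters with the centre of a shorter-list peak in each 1-kb bin up to 20 kb from the start with the highest CpG ratio, by class and replicate. The gap of the closed classes at the start is set by the rule, which also bars peaks near other starts of closed genes. In the 38 bins beyond the gap closed CpG-rich promoters (red) lie above open CpG-rich ones in 10 bins of replicate 1 and 19 of replicate 2. They lie below closed CpG-poor ones in 3 of each.

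Some closed promoters were neighbours. Of the 300, 72 stood in 30 runs of 2 or more coding genes that followed each other on the chromosome and were all members, and 26 stood in 7 runs of 3 or more. In some pairs the starts lay so close that their windows were largely the same. Examples were Gm9857 with Henmt1 (0.055 kb) and Hist1h2ba with Hist1h2aa (0.306 kb). The 2 members of such a pair are not separate cases. The longest run held 7 gene models of the alpha protocadherins, from Pcdha1 to Pcdha6 with Gm42416, and a second of 4 held Pcdha8, Pcdha9 and both models of Pcdha11. Hoxa11, Hoxa13 and Evx1 on chromosome 6 formed a run of 3 whose starts spanned 67.8 kb. The proline-rich genes Prr23a1, Prr23a2 and Prr23a3 on chromosome 9 formed another over 22.3 kb. Tfap2d and Tfap2b on chromosome 1 formed a pair 106 kb apart. Runs of 3 on chromosomes 12 (with Srp54b) and 17 (with Gm3417) lay in repeated sequence, as did pairs such as Plac9a with Tmem254a on chromosome 14.

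Matches to sequence motifs were counted on both strands within 500 bp of the start with the highest CpG ratio. Some matches share bases, since GGGCGG and the reverse of TCCCGCC overlap. Motifs known from constitutive promoters were less frequent at closed than at open CpG-rich promoters. SP/KLF sites (GGGCGG) were found at 81.3% against 92.9% (65.5% of all genes), ETS sites (CCGGAAGT) at 4.67% against 12.3% (7.66%), YY1 sites (AAGATGGC) at 5.00% against 10.4% (7.95%), E2F sites (TCCCGCC) at 40.0% against 50.1% (32.1%) and NRF1 sites at 1.33% against 3.13% (1.85%). The ETS difference held in each range of the CpG ratio, at 3.90% against 13.0% from 0.60 to 0.70, 7.87% against 13.3% from 0.70 to 0.80, and 1.75% against 11.5% above. Closed promoters in the last range were few, with 34 up to 0.90, 18 from there to 1.0 and 5 beyond. Shares by CpG range are not given here for the other motifs. Other motifs were more frequent at closed promoters: the E-box CACGTG at 28.7% against 22.5% (18.3% of all genes), the homeodomain core TAATTA at 15% against 7.83% (13.5%) and the TATA box TATAAA at 23% against 17.6% (30.1%). Within 250 bp of the start the TATA box was found at 13.7% against 5.91%. The CCAAT motif of NFY differed little, at 65.3% against 62.3% (68.6%). Rarer motifs were few in both classes. The cAMP response element TGACGTCA was found at 2.67% against 5.01% (3.42% of all genes), the ZBTB33 site at 0.667% against 1.47% (0.822%) and the CTCF core at 0.333% against 0.382% (0.332%). The ZNF143 site was found at 0 closed promoters against 0.885% of open ones (0.606%), and the core of the REST element at 0 against 0.177% (0.149%).

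**Figure D5:**
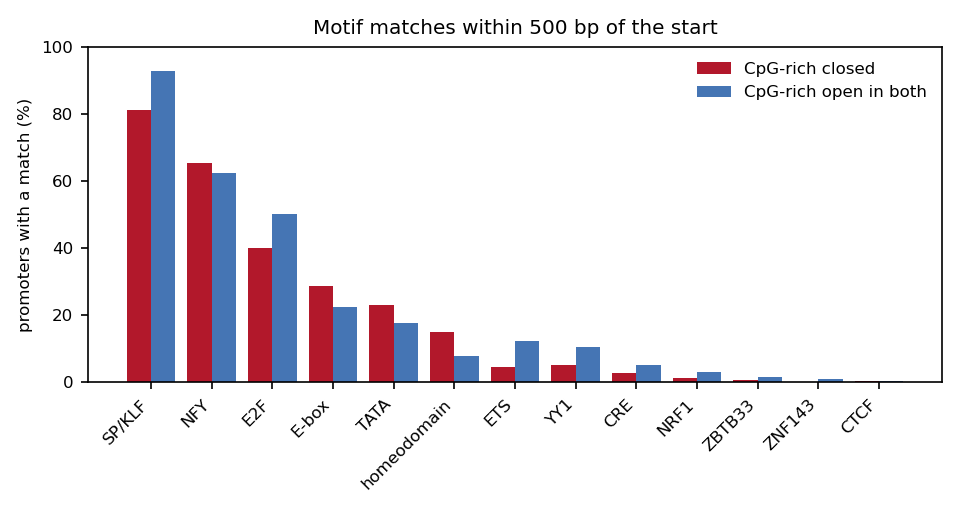
Percent of closed CpG-rich promoters (red) and of CpG-rich promoters open in both replicates (blue) with at least 1 match to each motif within 500 bp of the start. SP/KLF, E2F, ETS and YY1 matches are less frequent at closed promoters, and E-box, TATA and homeodomain matches more frequent.

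The E-box was unevenly spread over the groups. It was found at 14 of 20 closed germ cell promoters (70.0%) and at 14 of 36 open ones (38.9%). Among the closed ones were Sycp1, Sycp2, Sycp3, Hormad1, Rnf212 and Tex12 of the meiosis list and 6 of the 7 piRNA genes, with Henmt1 the exception. All 11 closed alpha protocadherin models held an E-box and none of the 7 gamma models did, and the alpha promoters are related in sequence, so they are not independent cases. At developmental factors the E-box was found at 19 of 51 closed promoters (37.3%) and 39 of 185 open ones (21.1%), and TAATTA at 14 of 51 (27.5%) and 14 of 185 (7.57%). TAATTA was not particular to this group. It was found at 4 of 20 closed and 2 of 36 open germ cell promoters, and at 2 of 14 closed and 10 of 144 open neuronal ones. Of the clustered protocadherins 8 of 18 closed and 0 of 2 open promoters held it. Of the 14 closed neuronal promoters 2 held an E-box, and of the 129 in no list 21 did. The E2F motif, unlike the E-box, was about equally frequent at closed and open germ cell promoters, at 9 of 20 and 16 of 36. A match describes the letters in the window and does not show that a factor was bound.

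The limits of the rule cut through close values. The lowest CpG ratios among members were 0.60 at Ly6g6c, 0.601 at Rxfp2 and Lin28a and 0.602 at Plac9a and Plac9b. Just below the limit were Gm13290 and Oxct2a at 0.598, Gm13306 at 0.597 and Gjb6 at 0.596. The members nearest to a peak were Slc6a4 at 1003 bp, Prr23a3 at 1029 bp, Foxe1 at 1030 bp, Pitx1 at 1043 bp and Ap1m2 at 1044 bp. Just within the limit, and so not members, were Rfx4 at 977 bp, Mei1 at 964 bp, Nmnat2 at 940 bp, Fezf2 at 935 bp and Hmx3 at 928 bp.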

How the data were processed

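Per the deposited file listing, each file came from the alignments of 1 sample on mm10, with no pooling. Which programs aligned the reads and called peaks and footprints is not given in the sources used here. The deposited peak lists give 1 height per peak, a signal that the authors normalised. The listing names read-depth normalisation, and the scale is not stated. The deposited FDR lists give adjusted p-values per stretch of bases, listed only under 0.05, and each deposited footprint carries the same p-value of 0.01, read as the threshold of the call. Read totals were not used here, and reads of CAST/EiJ alleles were placed on the reference of the other parent.

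Genes came from GENCODE M21 and sequence from GRCm38.p6. CpG ratios, peak distances, motif matches and repeated 32-base words (either strand, over all 65 reference sequences) were computed in Python 3.11.15 with numpy 2.4.6, pandas 2.3.3, scipy 1.17.1 and numba 0.67.0, and figures were drawn with matplotlib 3.10.9. The functions for CpG ratios, motif matches, distances, repeated words and islands passed their checks on made-up data (8 of 8). The counting of peaks, footprints and listed bases in the windows was not checked in this way. A peak counted when it overlapped the window by any base, and its height was the highest in the window. An island was the stretch of overlapping 200-bp windows with over 50% GC and a CpG ratio of 0.60 or more around the start.

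The members and the 30 gene lists and 14 motifs were chosen with earlier results of these data known. The pooled groups of lists and the CpG ranges for motifs were added later, with the data in view. The naming rule took, per list, up to 4 closed promoters with the highest CpG ratio and 2 open ones with the highest peak in replicate 1, and over all members the 10 highest in CpG ratio, longer-list peak and distance to a peak, the longest runs, and 5 genes on each side of each limit. Lists of closed members are given whole or in part beyond that rule. With 2 samples of 1 group, no test was made. The alternatives were the longer list, other distances and CpG limits, the most 5′ start alone, each replicate alone, and leaving out repeated promoters. Some genes that the naming rule takes are not reported here.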

Additional observations from a re-analysis of the deposited data

How the results depend on the processing

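The number of closed CpG-rich promoters was 300 as described. It was 162 with the longer peak list, 489 with a CpG ratio of 0.50 or more and 97 with 0.75 or more. With either replicate alone it was 360 to 418. With 500 bp around the starts it was 349, which must include all 300 because the window is narrower. Of the 300, 263 were among the 304 found with the most 5′ start alone. The closed share of all CpG-rich promoters was 1.44% with the longer list, 3.11% with 500 bp, 2.32% with 2 kb, 3.10% with the most 5′ start, 3.84% and 1.33% with the CpG limits of 0.50 and 0.75, 2.22% without mostly repeated promoters, and 3.21% to 3.73% with 1 replicate. With the longer list the share was 7.01% for developmental regulators, 20.7% for germ cell genes and 3.51% for neuronal genes, and at a CpG limit of 0.75 it was 17.9% for germ cell genes, with 1 of 10 meiosis genes closed. Among histone genes 2 of 64 were closed with 2 kb. With 1 replicate it ran from 24.4% to 26.2% for developmental regulators and from 10.5% to 13.5% for neuronal genes. The cause was not tested. In 1 or both replicates 46.0% of members had a longer-list peak (33.3% to 36.7% with 1 replicate), 52.0% a base under an FDR of 0.05 (40.3% to 40.7%) and 38.0% a footprint (26.0% to 28.3%). The nearest peak of the longer list was at a median of 2.57 kb in replicate 1 and 3.64 kb in replicate 2, against 7.07 kb and 11.3 kb. Closed minus open, the NFY motif changed sign to -1.57 percentage points within 250 bp, and the CTCF motif to 0.054 within 250 bp and to 0.023 without repeated promoters.

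No paired analysis was possible because there was 1 group of 2 samples and nothing to pair. Read depth was not used here, so a promoter without a peak is one at which none was detected in these libraries, which is not the same as a promoter shut in every cell. The longer list, as a less strict threshold, left 54.0% of members without a peak.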
